A study of Mus musculus with 21 samples.

Results

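The genes described here encode the subunits of the oxidative phosphorylation machinery, chosen by name (Nduf, Sdha to Sdhd, Uqcr, Cox5 to Cox8, Atp5 and the mt- protein genes) in RNA-seq of brain macrophages sorted from mice. The names matched 118 rows of the table, 14 of which carry a -ps suffix and were dropped. Of the 104 left, 8 failed the filter on low counts (Ndufa11b, Ndufb11b, Ndufs6b, Cox6c2, Cox7b2, Cox8c, Ndufa4l2 and a second row named Atp5po). The 96 members tested comprise 83 nuclear genes and 13 genes of the mitochondrial genome, among 18867 genes tested of 57180 rows. Of the nuclear members, 38 were assigned to complex I, 4 to complex II, 8 to complex III, 15 to complex IV and 18 to complex V. A matching name does not make each product a structural subunit, as for Cox7a2l, a factor of respiratory supercomplexes. The 13 mt- members encode 7 subunits of complex I, 1 of complex III, 3 of complex IV and 2 of complex V. The name rule leaves out Cox4i1, Cox4i2, Cyc1, Ndufab1 and Cycs, which also belong to the chain.

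The study asked, by its title, how replacing microglia in newborn mice bears on seizures in the adult. Monocyte-derived microglia-like cells (MLC) and transplanted microglia (MG), both with the genotype Osb-GFP, and endogenous microglia of non-transplanted mice (NoTx), with the genotype CX3CR1-CreER+/-; CSF1R fl/fl, were sorted from brain 5 days after a kainic acid seizure or from saline animals. In the NoTx genotype, Cre is driven by the microglial and macrophage gene CX3CR1, and whether it was induced was not stated in the sources used here. In every comparison with NoTx, genotype and transplantation differ together with the cell kind, and these cannot be told apart. Kainic acid is an agonist of glutamate receptors that is used to induce seizures in rodents. The 21 libraries comprise 6 MLC, 4 MG and 3 NoTx libraries after seizure and 3 MLC, 3 MG and 2 NoTx libraries from saline animals. They are labelled as biological replicates, without ages. The names of the seizure libraries carry the codes F1, M1, F2 or M2, whose meaning is not stated and which occur in all 3 cell kinds. MLC replicates 3 and 6, coded 11b, share the code M1 with MLC replicate 2 and F2 with MLC replicate 4; whether such a pair came from 1 animal is not stated, so n = 6 may count fewer independent samples. By the labels, batch 1 holds every seizure library and batch 2 every saline library, and treatment and batch cannot be told apart.

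Library totals ran from 6571265 to 73842002 counts after seizure and from 36528870 to 50316243 in saline animals. The correlation of log2 values between libraries of a group was 0.546 to 0.896 after seizure and 0.865 to 0.959 in saline animals. In MLC after seizure it was 0.798 between replicates 2 and 3 and 0.896 between replicates 4 and 6, the pairs that share a code. The value of 0.896 was the highest in that group. Sall1, a transcription factor of microglial identity, stood at 1.67 to 10.02 CPM (counts scaled to the library total) in MLC after seizure, against 194 to 329 CPM in MG after seizure. Ms4a7, a marker of bone-marrow-derived brain macrophages, stood at 1684 to 4786 CPM in MLC after seizure and at 1.08 to 15.3 CPM in MG after seizure. Both markers therefore follow the labelled cell kinds in these groups. All 7 microglial markers tested had lower fitted values in MLC than in MG after seizure, although Tmem119, Cx3cr1 and Csf1r overlapped. All 5 macrophage markers were called higher there by edgeR. Lyz2, a macrophage marker, stood at 691 to 3037 CPM in NoTx saline libraries, against 448 to 751 CPM in MG saline libraries. Xist exceeded 50 CPM in 0 of 6 MLC, 4 of 4 MG and 2 of 3 NoTx libraries after seizure, although the names of both MLC and MG libraries carry F and M codes. In NoTx after seizure, the libraries coded F1 and F2 exceeded 50 CPM and the library coded M1 did not. In saline animals Xist did so in 0 of 3 MLC, 3 of 3 MG and 0 of 2 NoTx libraries. The sex of the sorted cells, as far as Xist shows it, cannot be told apart from the cell kind between MLC and MG. The same holds between MG and NoTx in saline animals. Within NoTx, seizure and saline libraries also differed in Xist, and so did MLC and NoTx libraries after seizure. Each value is an average over a sorted population, in which fewer cells of a type and less RNA per cell cannot be told apart.

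Oxidative phosphorylation couples the oxidation of nutrients to ATP synthesis in the inner mitochondrial membrane. Complexes I and II pass electrons from NADH and succinate to ubiquinone, complex III passes them to cytochrome c and complex IV to oxygen, while complexes I, III and IV pump protons that drive the ATP synthase, complex V. The mitochondrial genome encodes the core membrane subunits of all these complexes but complex II, and the nuclear genome encodes the rest. Microglia and macrophages are known to shift between oxidative phosphorylation and glycolysis with their state of activation.

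The promoters of 3 of the 4 nuclear members called below in a comparison are shown because the results turn on these genes. They are the last 150 bases before the start, from RefSeq on GRCm38.p6, all on the minus strand and written 5′ to 3′. Capitals mark the core of the NRF1 motif (GCGCA, any base, then GCGC) and CCAAT, each searched on both strands; the motifs do not overlap one another in these windows. Sdha lies at chr13:74350241-74350390, Ndufs8 at chr19:3912775-3912924 and Atp5pb at chr3:105959264-105959413.
Sdha: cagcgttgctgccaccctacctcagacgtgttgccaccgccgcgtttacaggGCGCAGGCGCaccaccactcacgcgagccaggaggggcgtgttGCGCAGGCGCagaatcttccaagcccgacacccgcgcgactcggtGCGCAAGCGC
Ndufs8: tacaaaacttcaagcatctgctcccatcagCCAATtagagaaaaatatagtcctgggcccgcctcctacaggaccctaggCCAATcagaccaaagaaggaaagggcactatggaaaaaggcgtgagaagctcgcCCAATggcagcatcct
Atp5pb: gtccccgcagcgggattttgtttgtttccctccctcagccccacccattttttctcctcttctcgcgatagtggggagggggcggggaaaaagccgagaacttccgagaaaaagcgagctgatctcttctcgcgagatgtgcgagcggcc
The Sdha window holds 3 matches to the NRF1 core, the Ndufs8 window holds 3 to CCAAT, and the Atp5pb window holds neither motif. Over 250 bases before the start, the NRF1 core was found in 13 of the 68 nuclear members that have an entry (19.1%), against 4.23% of 27025 genes. CCAAT was found in 28 of the 68 members (41.2%), against 37.5% of all genes, and ACTTCCGG, a motif of the ETS family, in 3 of 68 (4.41%), against 3.23%. A match describes the letters and is not a measured binding site.

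As shares of all counts, the 13 mt- members were higher in MLC after seizure than in the other groups, while the 83 nuclear members were not. The mt- members took 1.36 ± 0.68% of counts in MLC (SD, n = 6), 0.655 ± 0.228% in MG (SD, n = 4) and 0.623 ± 0.212% in NoTx (SD, n = 3) after seizure. The nuclear members took 0.761 ± 0.120% in MLC (SD, n = 6), 0.819 ± 0.116% in MG (SD, n = 4) and 0.792 ± 0.125% in NoTx (SD, n = 3) after seizure. The mt- share of the MLC libraries, with a lowest, median and highest value of 0.608%, 1.25% and 2.42%, overlapped the 0.442 to 0.977% of MG and the 0.486 to 0.867% of NoTx. The ratio of the mt- share to the nuclear share did not overlap. It stood at 1.03, 1.56 and 3.09 (lowest, median and highest) in MLC after seizure, against 0.561 to 0.994 in MG and 0.631 to 0.960 in NoTx after seizure. Without the MLC library at 3.09, the other 5 ran from 1.03 to 1.97.

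In saline animals the mt- share was 0.805%, 0.652% and 0.508% in the MLC libraries, against 0.569%, 0.385% and 0.369% in MG and 0.619% and 0.459% in NoTx. The highest MG and NoTx libraries lay above the lowest MLC library. The ratio was 0.930 to 1.20 in MLC, 0.5259 to 1.05 in MG and 0.510 to 0.884 in NoTx saline libraries, so that MLC overlapped MG but not NoTx. The nuclear share in saline animals was 0.599 ± 0.064% in MLC (SD, n = 3), 0.621 ± 0.099% in MG (SD, n = 3) and 0.7998 ± 0.140% in NoTx (SD, n = 2). One gene, mt-Cytb, accounted for 31.5 to 44.3% of all mt- counts in every library.

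**Figure D1:**
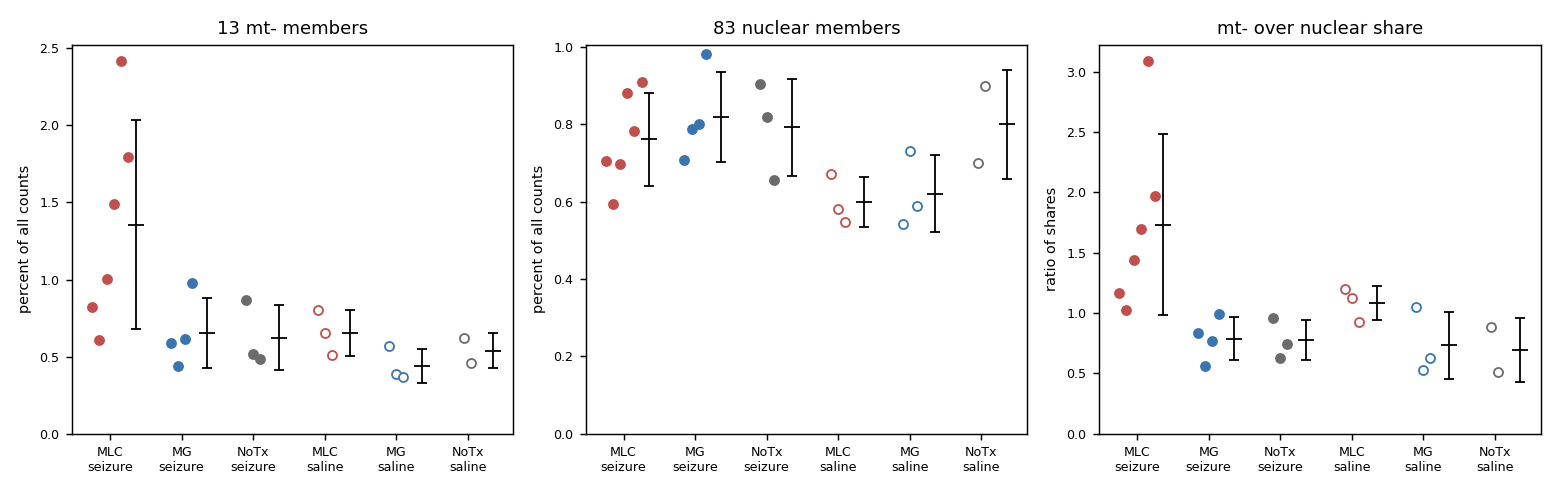
Share of all counts (percent) taken by the 13 mt- members and by the 83 nuclear members, and the ratio of these shares, in each library of the 6 groups; filled circles are seizure and open circles saline libraries, and the black bars give the group mean ± SD. The 6 MLC seizure libraries have ratios of 1.03 to 3.09, above every MG and NoTx seizure library (highest 0.994).

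Of the 13 mt- members, mt-Co2 alone was called between MLC and MG after seizure at an adjusted p under 0.05 in edgeR's quasi-likelihood test, with MLC higher. It encodes the complex IV subunit that takes electrons from cytochrome c. Its CPM in MLC after seizure was 215 at the lowest, 317 at the median and 445 at the highest, against 108, 104, 258 and 168 in the MG libraries and 201, 178 and 211 in the NoTx libraries. The 2 lowest MLC libraries (239 and 215 CPM) lay below the highest MG library, whereas all 6 MLC libraries lay above all 3 NoTx libraries. The log2 fold change of MLC over MG was 1.02 ± 0.28 (SE; adjusted p = 0.0334, edgeR). Against NoTx it was 0.72 ± 0.31 (SE; adjusted p = 0.163, edgeR). The call against MG was lost without MG replicate 1, 2 or 4 (adjusted p = 0.0992, 0.101 and 0.0592 in edgeR) and held in 13 of the 20 alternatives. Over all genes tested, 2.51% were called higher and 3.37% lower in MLC than in MG after seizure. Against NoTx, where no mt- member was called by edgeR, these shares were 2.55% and 3.61%.

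The other mt- members had log2 fold changes in the same direction in both comparisons, which share the MLC libraries. All 13 were positive against MG, with a median of 0.92 and 7 at an unadjusted p under 0.05, where the median over all genes was 0 and 24.9% of all genes had such a p. All 13 were positive against NoTx as well, with a median of 1.04 and 9 at an unadjusted p under 0.05, against 24.8% of all genes. With a correction for GC content, chosen after seeing the data, the median was 0.54 against MG and 0.60 against NoTx, beside 0.22 over all genes in both. Against NoTx, mt-Nd1, mt-Nd3 and mt-Co3 were negative in 1 or more alternatives, and so was mt-Nd6 against MG. The median against MG was 0.71 without MLC replicate 5. DESeq2 called 6 of the 13 higher against each of MG and NoTx, where it called 13% and 14.6% of all genes in either direction.

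By complex, mt-Nd4, a proton-pumping subunit of complex I, stood at 242, 625 and 1450.3 CPM (lowest, median and highest) in MLC after seizure. It stood at 324, 203, 242 and 442 CPM in MG and at 407, 315 and 351 CPM in NoTx after seizure. Its log2 fold change over MG was 1.19 ± 0.36 (SE; adjusted p = 0.0535, edgeR), just outside the threshold. It was called higher against MG in 4 of the 10 alternatives other than omission of single libraries. Only the lowest 2 MLC libraries fell inside the MG range.

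The mt-Nd1 and mt-Nd2 genes encode further membrane subunits of complex I. The log2 fold changes of MLC over MG were 0.52 ± 0.33 for mt-Nd1 and 0.91 ± 0.36 for mt-Nd2 (SE), and those over NoTx were 0.46 ± 0.36 and 1.24 ± 0.40. For mt-Nd5 they were 0.77 ± 0.45 over MG and 1.04 ± 0.50 over NoTx. In MLC after seizure, mt-Nd3 stood at 5.00 to 16.5 CPM, mt-Nd4l at 0 to 40.2 CPM and mt-Nd6 at 28.8 to 263 CPM. The genes mt-Nd4l and mt-Nd4 overlap, as do mt-Atp8 and mt-Atp6, and mt-Nd6 lies antisense beside mt-Nd5; the strand setting of the counting was not stated in the sources used here, so reads within these pairs may not be separated.

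Cytochrome b, the product of mt-Cytb and the only mitochondrially encoded subunit of complex III, had 1931, 5032 and 10304 CPM (lowest, median and highest) in MLC after seizure. It had 2045, 1661, 2814 and 4558 CPM in MG and 3511, 2085 and 1475 CPM in NoTx after seizure. The lowest MLC libraries lay within both of these ranges. The log2 fold change was 0.92 ± 0.40 over MG (SE; adjusted p = 0.157, edgeR) and 1.15 ± 0.45 over NoTx (SE; adjusted p = 0.125, edgeR).

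The catalytic core of complex IV, mt-Co1, had 1099, 2174 and 4441 CPM (lowest, median and highest) in MLC after seizure, against 887, 711, 1395 and 1474 CPM in MG and 1459, 1149 and 644 CPM in NoTx. The log2 fold change over MG was 1.05 ± 0.33 (SE; adjusted p = 0.0601, edgeR). The third subunit of the core, mt-Co3, had the smallest differences of the 13, with a log2 fold change of 0.43 ± 0.31 over MG and 0.15 ± 0.33 over NoTx (SE). The ATP synthase subunits mt-Atp6 and mt-Atp8 had log2 fold changes of 1.14 ± 0.42 and 0.93 ± 0.40 over MG (SE), and of 1.27 ± 0.47 and 1.35 ± 0.45 over NoTx. None of these 4 genes passed the threshold in the main edgeR fit, whose adjusted p was 0.0601 to 0.425 against MG and 0.0768 to 0.849 against NoTx. In the 10 alternatives other than omission of single libraries, mt-Co1 was called higher in 7 against MG and in 4 against NoTx. These counts were 3 and 1 for mt-Atp6, 1 and 2 for mt-Atp8, and 0 and 0 for mt-Co3. Without MLC replicate 1, 2 or 3, edgeR called mt-Co1, mt-Co2 and mt-Nd4 against MG.

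**Figure D2:**
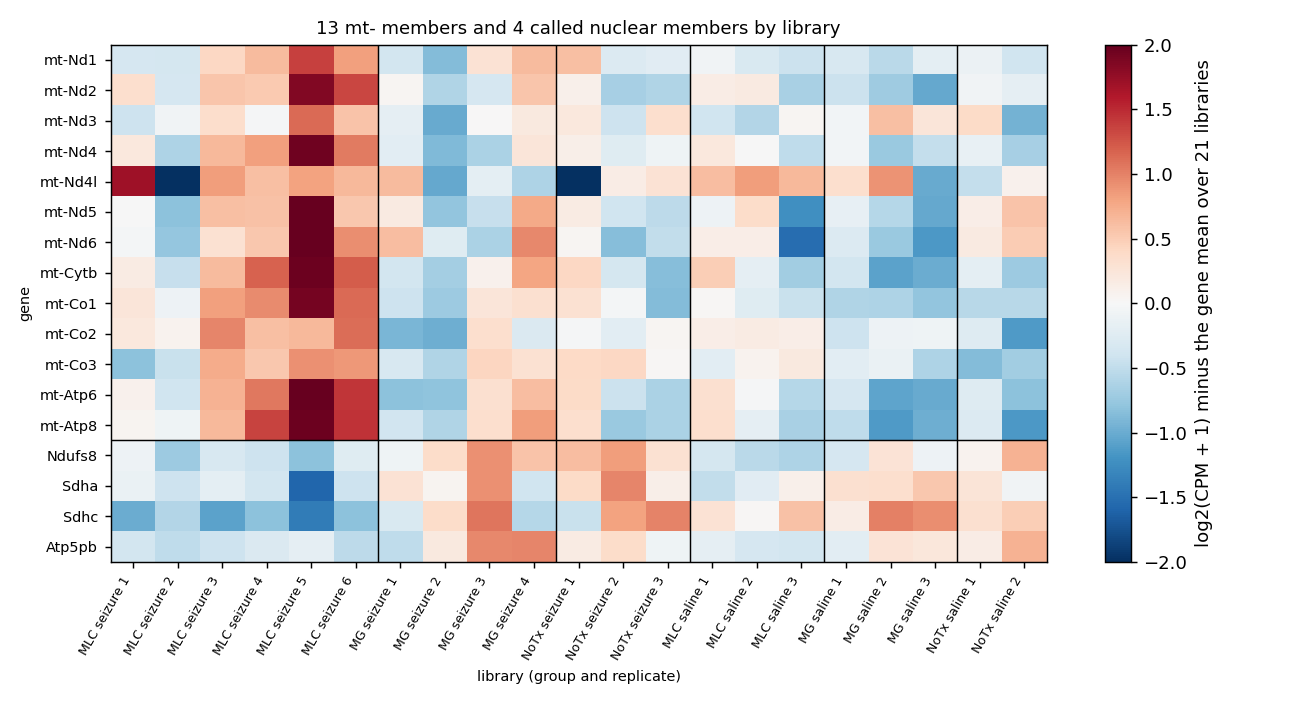
log2(CPM + 1) minus the gene's mean over the 21 libraries, for the 13 mt- members and the 4 called nuclear members (rows) in each library (columns); colours saturate at 2 log2 units in either direction. Among the MLC seizure libraries, replicate 5 has the highest mt-Cytb (10304 CPM) and the lowest Sdha (84.6 CPM).

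Among the 83 nuclear members, 3 were called lower and none higher in MLC than in MG after seizure (edgeR): Ndufs8 of complex I, Sdhc of complex II and Atp5pb of complex V. In this comparison 5.88% of all genes were called in either direction. The median log2 fold change of the 83 was -0.15, with 27 positive, and 12 had an unadjusted p under 0.05, of which 10 were lower. Against NoTx, 3 nuclear members were likewise called lower and none higher (Ndufs8, Sdhc and Sdha), where 6.16% of all genes were called. Here the median of the 83 was -0.01, with 40 positive, and 17 had an unadjusted p under 0.05, of which 12 were lower. The share of nuclear members called was therefore no higher than the share of all genes in either comparison.

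Ndufs8, an iron-sulfur subunit of the peripheral arm of complex I, stood at 71.0, 98.1 and 117 CPM (lowest, median and highest) in MLC after seizure. It stood at 119, 163, 240.2 and 187 CPM in MG and at 194, 227 and 157 CPM in NoTx after seizure. All 6 MLC libraries were below all MG and NoTx libraries, although the highest MLC library (117 CPM) lay close to the lowest MG library (119 CPM). The log2 fold change was -0.91 ± 0.24 over MG (SE; adjusted p = 0.0263, edgeR) and -1.03 ± 0.26 over NoTx (SE; adjusted p = 0.0196, edgeR). The call against MG was lost without MLC replicate 4 or 5 or MG replicate 3 or 4 (adjusted p of 0.054 to 0.115, edgeR), and the call against NoTx without MLC replicate 5 or NoTx replicate 1 or 2 (0.0506 to 0.108, edgeR). In all, the call held in 8 of 20 alternatives against MG and in 12 of 19 against NoTx, and the GC correction put the log2 fold change at -0.17 and -0.34.

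Of the other complex I members, Ndufv1, which binds FMN and takes electrons from NADH, had the lowest log2 fold change over MG, -1.28 ± 0.40 (SE; adjusted p = 0.0626, edgeR), and -1.32 ± 0.43 over NoTx (adjusted p = 0.0711, edgeR). It stood at 9.84, 21.3 and 45.8 CPM (lowest, median and highest) in MLC, against 39.0, 53.1, 98.9 and 32.4 CPM in MG and 51.9, 50.8 and 69.7 CPM in NoTx. The MLC range overlapped that of MG and lay below that of NoTx. Over the 38 complex I members the median log2 fold change was -0.23 against MG and -0.07 against NoTx, with 12 and 18 of them positive. Ndufb4b and Ndufb4c are near-copies of Ndufb4, and their counts are uncertain.

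All 4 members of complex II, the succinate dehydrogenase, had lower fitted values in MLC after seizure than in both other groups, with a median log2 fold change of -0.65 against each. Sdhc, which anchors the enzyme in the membrane, stood at 14.1, 20.3 and 25.6 CPM (lowest, median and highest) in MLC, against 31.1, 50.7, 82.7 and 25.9 CPM in MG and 28.3, 68.6 and 78.0 CPM in NoTx. The groups did not overlap, and the gap was narrow: the highest MLC library had 25.6 CPM and the lowest MG library 25.9 CPM. The log2 fold change was -1.26 ± 0.36 over MG (SE; adjusted p = 0.0399, edgeR) and -1.55 ± 0.38 over NoTx (SE; adjusted p = 0.0172, edgeR). Against MG this call held in 5 of 20 alternatives and was lost on leaving out any of 7 of the 10 libraries (MLC replicates 1, 3, 4, 5 and 6, and MG replicates 2 and 3; adjusted p up to 0.197 in edgeR). Against NoTx it held in 13 of 19 and was lost without NoTx replicate 2 or 3 (adjusted p = 0.0812 and 0.109, edgeR).

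Sdha, the flavoprotein that oxidises succinate, stood at 84.6, 194 and 232 CPM (lowest, median and highest) in MLC, against 314, 267, 485 and 193 CPM in MG and 335, 503.9 and 277 CPM in NoTx. MLC overlapped MG and lay wholly below NoTx. Its log2 fold change was -0.75 ± 0.28 over MG (SE; adjusted p = 0.107, edgeR) and -0.996 ± 0.299 over NoTx (SE; adjusted p = 0.0491, edgeR). The call against NoTx sits at the threshold and was lost without any single library (adjusted p of 0.0508 to 0.271, edgeR). Sdhb, the iron-sulfur subunit, had log2 fold changes of -0.31 ± 0.29 over MG and -0.0022 ± 0.31 over NoTx, and Sdhd, the other membrane anchor, of -0.55 ± 0.40 and -0.30 ± 0.43 (SE). For these the fitted difference was within 2 SE of 0.

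As a share of counts, complex II took 0.0554 to 0.0813% in MLC, 0.0770 to 0.1004% in MG and 0.0662 to 0.1002% in NoTx after seizure, so that the ranges overlapped. Per kilobase of the longest annotated transcript, Sdhb had the highest mean level of the nuclear members in all groups but MLC after seizure. There Cox7c was higher, at 423 against 303 CPM per kilobase for Sdhb. The rank depends on the transcript chosen, which has 1232 bases for Sdhb and, for example, 2142 for Ndufb8.

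No complex III member was called in either comparison by edgeR. The core proteins Uqcrc1 and Uqcrc2 had log2 fold changes over MG of -0.76 ± 0.34 and -0.84 ± 0.32 (SE; adjusted p = 0.171 and 0.115, edgeR). Uqcrfs1, the Rieske iron-sulfur protein, was low in all groups, at 5.25 to 12.51 CPM in MLC, 0.928 to 15.2 CPM in MG and 0.273 to 3.04 CPM in NoTx after seizure, and MLC did not overlap NoTx (log2 fold change 2.13 ± 1.01, SE; adjusted p = 0.193, edgeR). The mean share of the 8 members was 0.0862% in MLC, 0.107% in MG and 0.102% in NoTx after seizure.

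No nuclear complex IV member was called either. Cox7c, a small subunit, had the largest positive difference among those above 5 CPM against MG, with a log2 fold change of 0.88 ± 0.39 (SE; adjusted p = 0.164, edgeR), and 1.23 ± 0.44 over NoTx (SE; adjusted p = 0.0977, edgeR). It stood at 139, 238 and 722 CPM (lowest, median and highest) in MLC after seizure, against 118, 149.6, 123 and 261 CPM in MG and 174, 109 and 99.4 CPM in NoTx. The value of 722 CPM was that of MLC replicate 5, and the next was 301 CPM. Cox5a, an early-assembling subunit, stood at 6.37 to 29.5 CPM in MLC, against 6.09 to 17.3 CPM in MG and 0.656 to 7.26 CPM in NoTx, which overlapped. Over the 15 members the median log2 fold change was -0.06 against MG and 0.20 against NoTx.

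Complex IV has paired isoforms that in other tissues divide between heart and muscle and the remaining organs. The ubiquitous forms carried the counts here. Per kilobase, Cox6a1 averaged 94.6 CPM and Cox6a2 6.67 CPM in MLC, 153 and 10.3 CPM in MG and 142 and 8.51 CPM in NoTx after seizure. Cox6b1 averaged 216 CPM per kilobase in MLC, 259 in MG and 213 in NoTx after seizure, while its testis form Cox6b2 averaged 2.83, 3.35 and 0.07. Cox7a2 averaged 97.8, 87.7 and 78.0 CPM per kilobase and Cox7a2l, a factor of respiratory supercomplexes, 157, 203 and 170.1, in MLC, MG and NoTx after seizure.

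The muscle form Cox7a1 was found in 4 of 6 MLC libraries after seizure, at 0.67 to 1.89 CPM, in 1 of 4 MG libraries, at 0.12 CPM, and in none of 3 NoTx libraries. DESeq2 called it higher in MLC in both comparisons, whereas edgeR did not (adjusted p = 0.126 and 0.0677). Cox8a averaged 100.1 CPM per kilobase in MLC, 106 in MG and 100.5 in NoTx after seizure, and Cox8b stood at no more than 0.413 CPM and Ndufb4c, the near-copy of Ndufb4, at no more than 0.384 CPM in any library. Ndufa4, a subunit of complex IV despite its name, averaged 72.3, 75.3 and 62.8 CPM per kilobase in MLC, MG and NoTx after seizure, and its paralogue Ndufa4l2 failed the filter.

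Atp5pb, the peripheral stalk subunit b of the ATP synthase, stood at 116, 128 and 148 CPM (lowest, median and highest) in MLC after seizure. It stood at 118, 192, 328 and 331 CPM in MG and at 189, 218 and 159 CPM in NoTx after seizure. The lowest MG library lay inside the MLC range, and MG replicates 3 and 4 lay far above it. The log2 fold change was -0.91 ± 0.25 over MG (SE; adjusted p = 0.0338, edgeR) and -0.55 ± 0.27 over NoTx (SE; adjusted p = 0.217, edgeR). The call against MG held in 5 of 20 alternatives, and leaving out any library but MG replicate 1 or 2 lost it (adjusted p of 0.0542 to 0.138, edgeR). Without the 3 libraries that detected the fewest genes when thinned to 1 depth (MG replicates 3 and 4 and MLC replicate 5), the log2 fold change over MG was -0.18, an alternative chosen after seeing the data.

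The c-ring of the ATP synthase is encoded by Atp5mc1, Atp5mc2 and Atp5mc3, whose mature proteins are identical. Per kilobase they averaged 18.3, 20.04 and 52.0 CPM in MLC, 22.6, 45.9 and 36.7 CPM in MG and 16.2, 37.9 and 56.4 CPM in NoTx after seizure. Without division by length they averaged 86.2, 15.1 and 44.8 CPM in MLC and 106.6, 34.6 and 31.6 CPM in MG. In NoTx after seizure these values were 76.5, 28.6 and 48.6 CPM. The order of these genes depends on the longest annotated transcript, of 4715 bases for Atp5mc1, 753 for Atp5mc2 and 862 for Atp5mc3. Atp5mc2 had a log2 fold change of -1.20 ± 0.40 over MG (SE; adjusted p = 0.0759, edgeR) and of -0.92 ± 0.43 over NoTx (SE; adjusted p = 0.187, edgeR). Atp5f1d, a subunit of the central stalk, had the lowest log2 fold change of all members over NoTx, -1.89 ± 0.80 (SE; adjusted p = 0.153, edgeR), at 0 to 17.8 CPM in MLC against 16.6, 40.3 and 39.2 CPM in NoTx. Over the 18 members of complex V the median was -0.16 against MG and -0.15 against NoTx.

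Without overlap, 0 of the nuclear members lay above and 2 below the MG libraries after seizure, where 2.44% of all genes lay above and 2.96% below. Against NoTx, 2 lay above (Uqcrfs1 and Atp5me) and 7 below (Ndufs7, Ndufs8, Ndufv1, Sdha, Sdhc, Atp5f1a and Atp5pb), where these shares were 4.12% and 5.1%. Of the mt- members, 0 lay apart from MG and 1, mt-Co2, lay above NoTx.

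Under the alternatives, the number of the 96 members called was read against the share of all genes called. Between MLC and MG after seizure, where 4 members were called in the analysis above, 3 were called with RLE scaling (5.42% of all genes), 12 by DESeq2 (13%), 2 by limma-voom (5.57%) and 3 without the filter on low counts (3.55%). Without the 2 libraries coded 11b 0 were called (4.36%), with the GC correction 2 (5.37%), without the 3 libraries that detected the fewest genes 3 (3.31%) and in a fit of the 2 groups alone 0 (4.13%). The 3 called with RLE scaling were mt-Co1, mt-Co2 and mt-Nd4. Between MLC and NoTx, in the same order, the counts were 3 (5.97%), 16 (14.6%), 3 (7.02%), 5 (3.85%), 1 (4.44%), 3 (6.01%), 4 (8.15%) and 0 (4.56%). In other comparisons limma-voom called 1 member, Ndufs8, between MLC and NoTx in saline animals (8.17% of all genes), and DESeq2 1 between MG and NoTx after seizure (3.32%) and 1 between seizure and saline in MLC (0.726%).

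**Figure D3:**
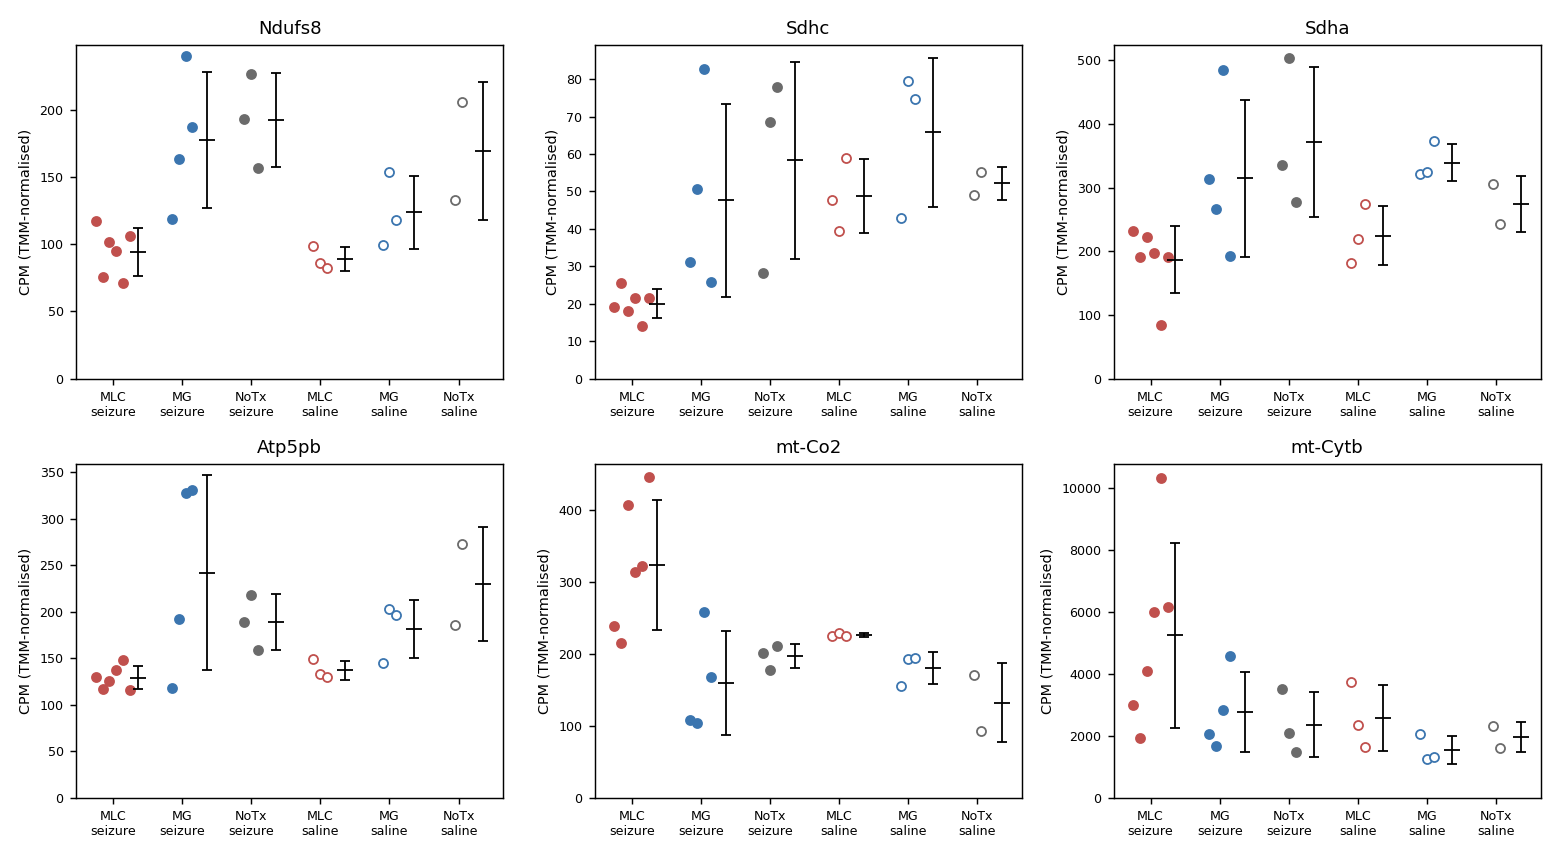
CPM of 6 members in each library of the 6 groups; filled circles are seizure and open circles saline libraries, and the black bars give the mean ± SD. Sdhc in the 6 MLC seizure libraries (14.1 to 25.6 CPM) lies below all other seizure libraries, while mt-Co2 in MLC seizure (215 to 445 CPM) overlaps the highest MG library.

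In saline animals, no member was called between any of the 3 cell kinds by edgeR. Between MLC and MG, where 1.58% of all genes were called, the nuclear members had a median log2 fold change of 0.01 and the mt- members of 0.45, with 12 of 13 positive. None of the 96 had an unadjusted p under 0.05, where 8% of all genes did. The largest nuclear difference above 5 CPM in a group was that of Cox5a, at 0.94 ± 1.09 (SE). Cox5a stood at 22.7, 2.37 and 2.43 CPM in MLC and at 1.09, 1.64 and 11.5 CPM in MG, so that 1 library led each group. The lowest nuclear difference was that of Atp5f1d, at -0.64 ± 0.96, and mt-Nd3 stood at -0.67 ± 0.82. Ndufs8 stood at 99.1, 86.4 and 82.0 CPM in MLC, against 99.8, 153 and 118 CPM in MG, without overlap and with a log2 fold change of -0.47 ± 0.31 (SE; adjusted p = 0.932, edgeR). Of the nuclear members 1 lay above and 5 below, and of the mt- members 2 lay above, all without overlap, where 10.4% and 12.4% of all genes did.

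Between MLC and NoTx in saline animals, where 1.26% of all genes were called, the nuclear members had a median log2 fold change of -0.32, against 0.08 over all genes. Only 12 of 83 were positive, and 4 had an unadjusted p under 0.05, all lower in MLC, where 8.08% of all genes had such a p. Without overlap, 3 lay above and 25 below, where 15.3% and 18% of all genes did. Ndufs8 had a log2 fold change of -0.93 ± 0.34 (SE; adjusted p = 0.346, edgeR) and Ndufa9, a complex I subunit near the ubiquinone site, of -0.92 ± 0.44 (SE; adjusted p = 0.618, edgeR). Among members above 5 CPM, Cox5a was highest, at 2.66 ± 1.36, and mt-Nd4l next, at 0.94 ± 1.23 (SE). Cox5a had 22.7 CPM in MLC replicate 1, against 2.37 and 2.43 CPM in the other MLC libraries. The mt- members had a median of 0.35.

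Between MG and NoTx in saline animals, where 0.053% of all genes were called, the nuclear median was -0.40, with 14 of 83 positive and none at an unadjusted p under 0.05, where 3.4% of all genes had one. Without overlap, 4 lay above and 14 below, where 18.5% and 18.3% of all genes did. Ndufa12, an accessory subunit of complex I, had the lowest nuclear value, -1.003 ± 0.516 (SE), and mt-Nd6 the lowest of all, -1.05 ± 0.69. Cox5a was highest at 1.72 ± 1.29, then Atp5f1d at 1.26 ± 1.11. Cox5a averaged only 4.76 CPM in MG and 1.44 CPM in NoTx, with 11.5 CPM in MG replicate 3. After seizure, 0.0742% of all genes were called between MG and NoTx, and the nuclear and mt- medians were 0.15 and 0.06. Of the nuclear members 2 had an unadjusted p under 0.05, where 11.1% of all genes did, and 1, Atp5mc3, lay below without overlap and none above, where 2.09% and 1.76% did. Atp5f1d (-0.69 ± 0.89) and Atp5mc3 (-0.62 ± 0.49) were lowest and, among members above 5 CPM, Uqcrfs1 (2.18 ± 1.05) highest.

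**Figure D4:**
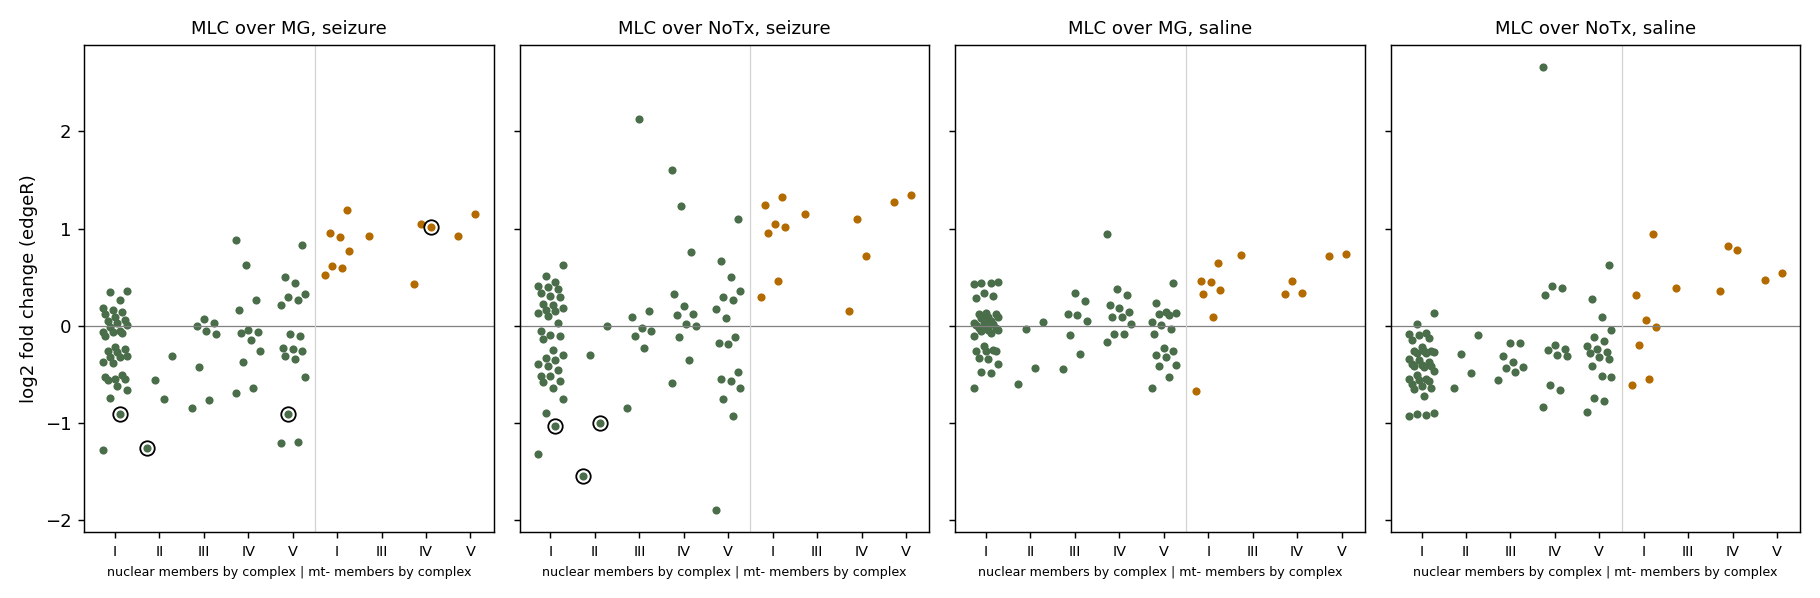
log2 fold change (edgeR) of 92 members in MLC over MG and over NoTx, after seizure and in saline animals, arranged by complex, with nuclear members left and mt- members right of the grey line; rings mark members with an adjusted p under 0.05, and 4 members with a highest group mean under 5 CPM (Cox6b2, Cox7a1, Cox8b and Ndufb4c) are not drawn. All 13 mt- members lie above 0 in both seizure panels, and the ringed nuclear members lie below 0.

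No member was called between seizure and saline in any cell kind by edgeR, where 0% of all genes were called in MLC, 0.0371% in MG and 0.106% in NoTx. In MLC all 13 mt- members were positive, with a median of 0.95 and 7 at an unadjusted p under 0.05. The nuclear members had a median of 0.35, with 10 at an unadjusted p under 0.05, against -0.06 over all genes, of which 11.9% had such a p. Without overlap, 4 nuclear members lay above and 1 below, where 1.23% and 5.05% of all genes did. Among members above 5 CPM, Cox7c (1.44 ± 0.44, SE; adjusted p = 0.304, edgeR) and Atp5me, a subunit of the dimer interface of the ATP synthase (1.27 ± 0.48, SE; adjusted p = 0.343, edgeR), were highest.

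Sdhc went the other way. It stood at 14.1 to 25.6 CPM in the MLC seizure libraries, against 47.7, 39.4 and 59.1 CPM in the MLC saline libraries, without overlap. Its log2 fold change was -1.29 ± 0.39 (SE; adjusted p = 0.304, edgeR). In MG, Sdhc had 31.1, 50.7, 82.7 and 25.9 CPM in seizure libraries, against 43.0, 79.6 and 74.8 CPM in saline libraries, which overlapped. Atp5f1d had the lowest value in MLC, -1.59 ± 0.80 (SE; adjusted p = 0.442, edgeR).

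In MG, 73 of the 83 nuclear members were positive between seizure and saline, with a median log2 fold change of 0.52 against -0.08 over all genes. Of these, 16 had an unadjusted p under 0.05, where 11.8% of all genes did. Complex I had 37 of 38 positive and complex IV 14 of 15, with a median of 0.86. Among members above 5 CPM, Ndufa12 (1.17 ± 0.45, SE; adjusted p = 0.397, edgeR) and Cox5a (1.23 ± 1.05; adjusted p = 0.697, edgeR) were highest, and Atp5f1d (-1.02 ± 0.89) and the catalytic subunit Atp5f1b (-0.615 ± 0.329) lowest. Ndufb8, a membrane-arm subunit of complex I, had 217, 239, 351 and 411 CPM in the MG seizure libraries, against 153, 214 and 151 CPM in the MG saline libraries. These groups did not overlap, as for 8 nuclear members in all that lay above and 1 that lay below, where 4.02% and 11.9% of all genes did. Without the 3 libraries that detected the fewest genes when thinned, the nuclear median in MG was 0.22, beside -0.25 over all genes. The mt- median in MG was 0.59, and without these libraries it was -0.11.

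In NoTx the nuclear median was 0.02 and the mt- median 0.32, and 1 member of each kind had an unadjusted p under 0.05, where 7.35% of all genes did. Without overlap, 6 nuclear members lay above and 6 below, where 4.96% and 16.2% of all genes did. Here mt-Co3 was highest among mt- members at 1.08 ± 0.44 (SE; adjusted p = 0.675, edgeR). Among nuclear members above 5 CPM in any of the 6 groups, Cox5a was highest (1.62 ± 1.29) and Uqcrfs1 lowest (-1.69 ± 1.15). In NoTx itself Cox5a averaged 4.44 CPM in seizure and 1.44 CPM in saline libraries. The test of whether seizure minus saline differed between MLC and MG called no gene (0%), and its mt- and nuclear medians were 0.43 and -0.19. In that test mt-Co2 stood at 0.69 ± 0.44, Sdhc at -0.82 ± 0.59 and Ndufs8 at -0.44 ± 0.39 (SE), with an unadjusted p of 0.13, 0.175 and 0.282 and an adjusted p of 1 in edgeR. Among members above 5 CPM, mt-Nd3 (1.27 ± 1.05) and Atp5me (0.92 ± 0.67) were highest and Atp5mc2 (-0.87 ± 0.64) and Sdhc lowest. The same test between MG and NoTx called 0.0106% of genes and no member, with a nuclear median of 0.54 and 68 of 83 positive. An unadjusted p under 0.05 was found for 1 member in the first test and 3 in the second, where 5.49% and 7.12% of all genes had one. Its lowest members were Atp5f1d (-1.95 ± 1.42) and Atp5f1b (-1.09 ± 0.52).

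The pathway around the complexes was followed through lists of related genes. Of 24 tested genes of the citric acid cycle and pyruvate entry, 3 were called lower and none higher in MLC than in MG after seizure (median log2 fold change -0.75), where 3.37% of all genes were called lower. In MLC, 4 were called lower and none higher than in NoTx (median -0.62), where 3.61% of all genes were called lower. Pdk1, a kinase that inhibits the pyruvate dehydrogenase complex, averaged 12.1 CPM in MLC, against 76.9 CPM in MG and 71.5 CPM in NoTx. Its log2 fold change was -2.67 ± 0.40 over MG (SE; adjusted p = 1.27e-04, edgeR) and -2.56 ± 0.42 over NoTx (SE; adjusted p = 3.67e-04, edgeR), and both calls held in all 20 and all 19 alternatives.

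Mdh2, the malate dehydrogenase of the cycle, averaged 133 CPM in MLC, against 289 CPM in MG and 270.1 CPM in NoTx, a log2 fold change of -1.13 ± 0.26 and -1.03 ± 0.28 (SE; adjusted p = 0.00936 and 0.0290, edgeR). The Mdh2 call held in 18 of 20 alternatives against MG and in 11 of 19 against NoTx. Mpc1, a subunit of the pyruvate carrier, had a log2 fold change of -0.92 ± 0.27 over MG and -1.20 ± 0.29 over NoTx (SE; adjusted p = 0.0430 and 0.0122, edgeR). These calls held in 5 of 20 and in 17 of 19 alternatives. In saline animals the log2 fold change of Mpc1 was -1.67 ± 0.38 over NoTx (SE; adjusted p = 0.0254, edgeR). That call held in 9 of 14 alternatives and was lost on leaving out any 1 of the 5 libraries. Idh3g, a subunit of the NAD-dependent isocitrate dehydrogenase, was called lower against NoTx (-0.97 ± 0.25, SE; adjusted p = 0.0225, edgeR), in 13 of 19 alternatives as well. Without the 3 libraries that detected the fewest genes when thinned, Pdk1 was the only one of the list called against MG, while the 4 against NoTx remained.

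Against the same shares of all genes, of 18 tested genes of carriers, uncoupling and oxidant defence, Slc25a5, which exchanges ADP for ATP across the inner membrane, was called lower against MG (-1.07 ± 0.28, SE; adjusted p = 0.0224, edgeR). Vdac2, a channel of the outer membrane, was called lower against NoTx (-0.93 ± 0.27, SE; adjusted p = 0.0425, edgeR). The Slc25a5 call held in 12 of 20 alternatives and the Vdac2 call in 6 of 19. No gene was called by edgeR in the MLC comparisons after seizure among 16 assembly factors of complex I, 33 of the other complexes, 31 genes of mtDNA transcription, replication and RNA handling, 12 regulators of mitochondrial biogenesis, 5 structural subunits that the names left out and the 2 mitochondrial rRNAs. The rRNAs took 0.0519 to 0.0948% of counts in MLC, 0.0363 to 0.0645% in MG and 0.0353 to 0.0760% in NoTx after seizure, which overlapped.

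Properties of the libraries other than the member values also varied. The mt- members have a median GC content of 37.1%, the nuclear members of 50.3% and all tested genes of 48.5%. The GC slope of a library, the change in its genes' deviation from their mean log2 CPM per 10 points of GC, ran from -1.55 to 0.0967 in MLC, from -0.432 to 0.448 in MG and from -0.355 to 0.644 in NoTx after seizure. With the correction for GC content, the nuclear median was 0.24 over MG and 0.35 over NoTx, beside the mt- and all-gene medians given above. Over MG it thus lay close to the median over all genes. The corrected log2 fold change of Sdhc was -0.90 over MG and -1.26 over NoTx.

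Malat1, a transcript that stays in the nucleus, took 1.48 to 3.30% of counts in MLC, against 0.761 to 1.44% in MG and 0.674 to 1.38% in NoTx after seizure. MLC replicate 5 had the lowest GC slope, the highest share of Malat1 and the highest ratio of mt- to nuclear counts. NoTx saline replicate 2 had the lowest ratio, 0.510, at a GC slope of -0.328. That slope lay below those of MLC replicates 1, 2 and 3 after seizure, whose ratios were 1.17, 1.03 and 1.44. The part of GC content in the mt- difference was tested by that correction only, and that of Malat1 was not tested.

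Markers of other cells were present at levels that differed between libraries. The 8 neuronal markers summed to 0.406 to 43.9 CPM in MLC (Tubb3 at 0), 0.0531 to 9.84 CPM in MG (Nefl, Tubb3 and Gad1 at 0) and 0.346 to 4.24 CPM in NoTx (Nefl, Tubb3 and Slc17a7 at 0) after seizure. The 4 endothelial markers summed to 0.532 to 6.56 CPM in MLC, 4.07 to 62.4 CPM in MG and 36.2 to 50.5 CPM in NoTx, with Cldn5 at 0 in MG and NoTx. The 4 red cell markers summed to 29.4 to 951 CPM in MLC, 73.80 to 157 CPM in MG and 5.74 to 193 CPM in NoTx. The 5 astrocyte markers summed to 1.89 to 132 CPM in MLC, 0.398 to 53.8 CPM in MG and 23.2 to 75.7 CPM in NoTx (Aqp4 at 0), and the 5 oligodendrocyte markers to 37.5 to 97.1 CPM in MLC, 75.9 to 119.9 CPM in MG and 21.7 to 133 CPM in NoTx. The 4 neutrophil markers summed to 1.24 to 5.61 CPM in MLC and 1.08 to 2.07 CPM in MG (Ly6g at 0 in both) and 1.59 to 237 CPM in NoTx after seizure, and to 12.7 to 405 CPM in NoTx saline libraries. Their part in the member values was not tested.

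**Figure D5:**
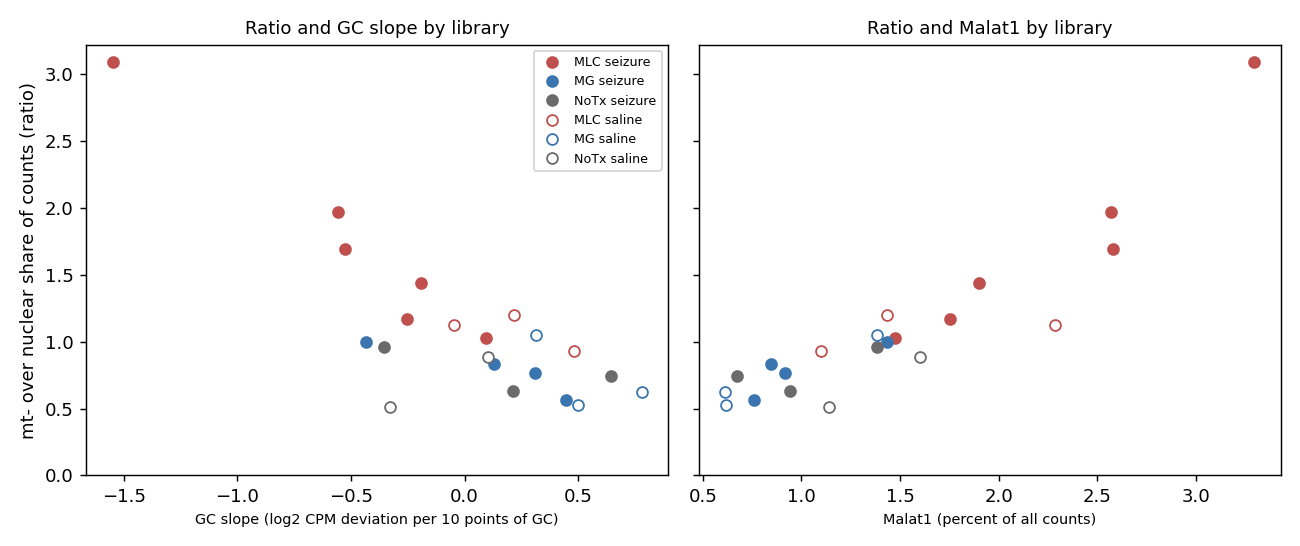
Ratio of the mt- share to the nuclear share of counts in each of the 21 libraries, against the library's GC slope (log2 CPM deviation per 10 points of GC) and against the percent of counts from Malat1. The library with the highest ratio, 3.09, has the lowest GC slope, -1.55, and the highest Malat1 share, 3.30%.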

How the data were processed

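RNA of sorted cells was made into libraries with a low-input PCR kit, per the labels' protocols. The deposited table holds estimated counts per gene that are partly not whole (28.2 to 45.4% of the values above 0 per library), made by the authors; the submitters' processing notes name GRCm39, Trim Galore 0.6.7, cutadapt 3.4, STAR 2.7.10a and featureCounts from Subread 2.4.5. How reads that map to several places were split was not stated in the sources used here, so members with near-identical copies are uncertain. All values lie in 1 table, and the 21 columns match the 21 samples by name.

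Counts were rounded and fitted in R 4.3.3 with edgeR 4.0.16 (TMM scaling, robust quasi-likelihood F test, 6 group means, genes passing filterByExpr with a count minimum of 10), and p-values were adjusted by Benjamini-Hochberg over all genes tested in a comparison, with a threshold of 0.05. CPM are TMM-scaled and serve description, and the adjusted p-values are all from this fit unless another tool is named. Levels per kilobase and GC content use the longest GENCODE M21 transcript, found for 82 of 83 nuclear and 13 of 13 mt- members. Replicates are the labels' biological replicates, and nothing else says that they came from separate animals, so p-values measure the spread between these samples. Interaction tests compared seizure minus saline between cell kinds.

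The members and lists were chosen with earlier results of these data known. Named are all mt- members, called nuclear members, isoform pairs, the 2 highest and 2 lowest log2 fold changes in a comparison (for the 4 members under 5 CPM in every group, CPM in place of fold changes) and called genes of the related lists. In these rankings, above 5 CPM refers to the highest group mean, which may lie outside the groups compared. Sdhb, Sdhd, Ndufb8, Uqcrc1, Uqcrc2 and Cox7c outside its extremes were chosen after their values were seen. Alternatives comprised RLE scaling, DESeq2 1.42.0, limma 3.58.1 voom with quality weights, no filter, a replicate block, omission of single libraries or of the 2 libraries coded 11b, a fit of 2 groups only, and, chosen after seeing the data, a block on the library codes, a GC correction (lowess span 0.3) and omission of the 3 libraries that detected the fewest genes when thinned to 1 depth.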

Additional observations from a re-analysis of the deposited data

Results flagged for a closer look

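In 64 sets of values, each from 1 group of 4 to 10 libraries, a test for 1 library far from the rest set apart 4. Chance sets apart about 1 in 20 independent sets. The 64 sets all came from the MLC and MG libraries after seizure and were not independent. Of the 4 set apart, 3 were MLC replicate 5 after seizure. It had 1018 CPM of mt-Nd5, where the other 5 MLC libraries lay between 127 and 345 CPM. It had 263 CPM of mt-Nd6, against 28.8 to 96.3 CPM in the others, and 84.6 CPM of Sdha, against 191 to 232 CPM in the others. The remaining one was MG replicate 4 after seizure, in which the nuclear members of complex IV took 0.134% of counts, against 0.0888 to 0.0929% in the other 3 MG libraries. No difference of the seizure effect between cell kinds passed the threshold for any member in edgeR.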

How the results depend on the processing

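The number of members called between MLC and MG after seizure, 4, became 12 with DESeq2, 2 with limma-voom, 2 with the GC correction, 14 with a block on the library codes (8.32% of all genes called), and 0 with the replicate block (4% of all genes), without the 2 libraries coded 11b or in a fit of the 2 groups alone. Leaving out 1 library gave 1 to 6. Between MLC and NoTx after seizure the 3 became 16 with DESeq2, 5 without the filter, 1 without the libraries coded 11b, 4 with a block on the codes (6.28% of all genes), and 0 with the replicate block (3.95%) or in a fit of the 2 groups; leaving out 1 library gave 0 to 6, with 0 without NoTx replicate 2. Where 0 members were called, limma-voom called 1 between MLC and NoTx in saline animals, and DESeq2 1 between MG and NoTx after seizure and 1 between seizure and saline in MLC. The block on the codes, the GC correction and the omission of the 3 libraries were chosen after seeing the data. The cause of these changes was not tested.

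The direction turned against MG for mt-Nd6 (-0.10 with the block). Against NoTx it turned for mt-Nd1 (-0.18 with the block), mt-Nd3 (-0.16 with the block, -0.39 with the GC correction) and mt-Co3 (-0.10 with limma-voom, -0.39 with the block, -0.12 with the block on the codes, -0.071 without the libraries coded 11b, -0.14 with the GC correction). The median of the nuclear members over MG turned to 0.03 with RLE scaling, which put the median of all genes at 0.12. Some same-numbered libraries deviated together and others did not (correlation of -0.307 to 0.446 over 17 pairs, 8 of them over 0.1). The same held for seizure libraries with the same code (-0.288 to 0.373 over 14 pairs, 4 over 0.1). The replicate numbers do not follow the codes, and neither was taken to pair the samples, although some of them may be paired.

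With the 20 most abundant genes left out of the denominator, the mt- share averaged 0.854% in MLC, 0.557% in MG and 0.677% in NoTx saline libraries. The nuclear share then averaged 0.982% in MLC, 1.04% in MG and 1.02% in NoTx after seizure, and 0.778% in MLC, 0.786% in MG and 1.01% in NoTx saline libraries. A member that was not called may still differ.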
